A study of Mus musculus with 21 samples.

Results

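Glycolysis splits glucose into pyruvate in the cytosol, and pyruvate then leaves as lactate or enters the mitochondrion for oxidation. The 34 genes described here were taken by symbol from a list in pathway order. It runs from the glucose carriers Slc2a1 and Slc2a3 through the hexokinases, phosphofructokinases and the enzymes of lower glycolysis to lactate dehydrogenase, the lactate carriers Slc16a1 and Slc16a3, the mitochondrial pyruvate carrier and pyruvate dehydrogenase with 2 of its kinases. All 34 were found in 2 of the 3 deposited tables, among 15945 genes (bone marrow eosinophils and progenitors) and 16645 genes (cultured eosinophils), and 33 were found among the 22274 genes of the third table, with resting eosinophils and eosinophils given cytokines. That table lists Gpi1 as Gpi, so the symbol was not matched, and its row is given beside the members without being counted.

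Poly(A) RNA of 21 libraries from WT mice was measured. BM eosinophils (n = 3) were set against granulocyte-macrophage progenitors (GMPs, n = 3), both labelled untreated and both from bone marrow. Eosinophils given cytokines of type 2 immunity (T2, n = 3) were set against untreated resting eosinophils (n = 3). The T2 labels name IL-4 and GM-CSF for each library together with IL33, IL34 or IL35, a different one per library. Whether these names mark 3 treatments or a slip in labelling is not given, and the 3 libraries were kept as 1 group. Bone marrow-derived eosinophils (BMDEs) were grown from marrow with SCF and FLT3L (100 ng/mL each) and, from day 4, with IL-5 (10 ng/mL). On day 4 they received 5 µM DFO (deferoxamine, an iron chelator, n = 3) or 10 µM FAC (ferric ammonium citrate, an iron source, n = 4), or nothing (control, n = 2), and RNA was taken on day 7. One culture protocol, that of BMDEs, is attached to all 21 libraries, and no isolation step is given for the cells of the other 2 tables. The labels do not say whether libraries of a group came from different animals or cultures, so the p-values below cover the spread among these libraries, which may be technical.

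Mature granulocytes have few mitochondria compared with most cells and are known to draw much of their ATP from glycolysis. Flux is set mainly at hexokinase, phosphofructokinase and pyruvate kinase. Fructose-2,6-bisphosphate, made and removed by the Pfkfb enzymes, activates phosphofructokinase. Pyruvate dehydrogenase kinases switch off pyruvate dehydrogenase and so hold pyruvate back from the mitochondrion. Many of these genes are known targets of the oxygen-sensing factor HIF-1, whose prolyl hydroxylases need iron.

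The table with GMPs held 25857382 to 28992668 counts a library, the table with T2 eosinophils 16073573 to 18995878 and the table with BMDEs had 16809789 to 17991878. Levels are counts in CPM (read counts relative to the library total, scaled with TMM factors). Genes were compared with each other only per kilobase of the longest annotated transcript. A pair of libraries stood apart. BM eosinophil library 3 had a TMM factor of 0.689, against 0.914 to 1.21 in the other 5 libraries of its table, and FAC library 6 had 0.921, against 0.961 to 0.979 in the other FAC libraries. Summed eosinophil markers (11 genes, none at 0 in any eosinophil group) reached 20220 to 36990 CPM in BM eosinophils and 97.2 to 259 CPM in GMPs. Summed neutrophil markers reached 38760, 82450 and 206900 CPM in BM eosinophil libraries 1, 2 and 3, against 93.0 to 135 CPM in GMPs, and the 10 GMP markers summed to 37800 to 63170 CPM in BM eosinophils and 53160 to 63250 CPM in GMPs. In these bulk samples fewer cells of a type and less RNA per cell cannot be told apart.

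The most abundant members were the same few in each group. Per kilobase, Gapdh (glyceraldehyde-3-phosphate dehydrogenase) led in BM eosinophils (1671 ± 393 CPM per kb, SD, n = 3), GMPs (1555 ± 339), T2 eosinophils (1609 ± 131), DFO BMDEs (1931 ± 73.1), FAC BMDEs (3163 ± 398) and control BMDEs (2590 ± 50.4). Resting eosinophils were the exception, with Aldoa (aldolase A) at 812 ± 49.8 CPM per kb above Gapdh at 611 ± 26.3. Aldoa, Eno1, Pkm and Ldha filled the next places in most groups. In BM eosinophils, Eno1 at 1168 ± 163 and Pkm at 1037 ± 135 CPM per kb did not differ by more than their spread, nor in control BMDEs did Aldoa at 735 ± 9.84 and Pkm at 734 ± 17.7. At the other end, Eno2, the neuronal enolase, had 0 counts in all BM eosinophil libraries and at most 0.0639 CPM in a GMP library.

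**Figure D1:**
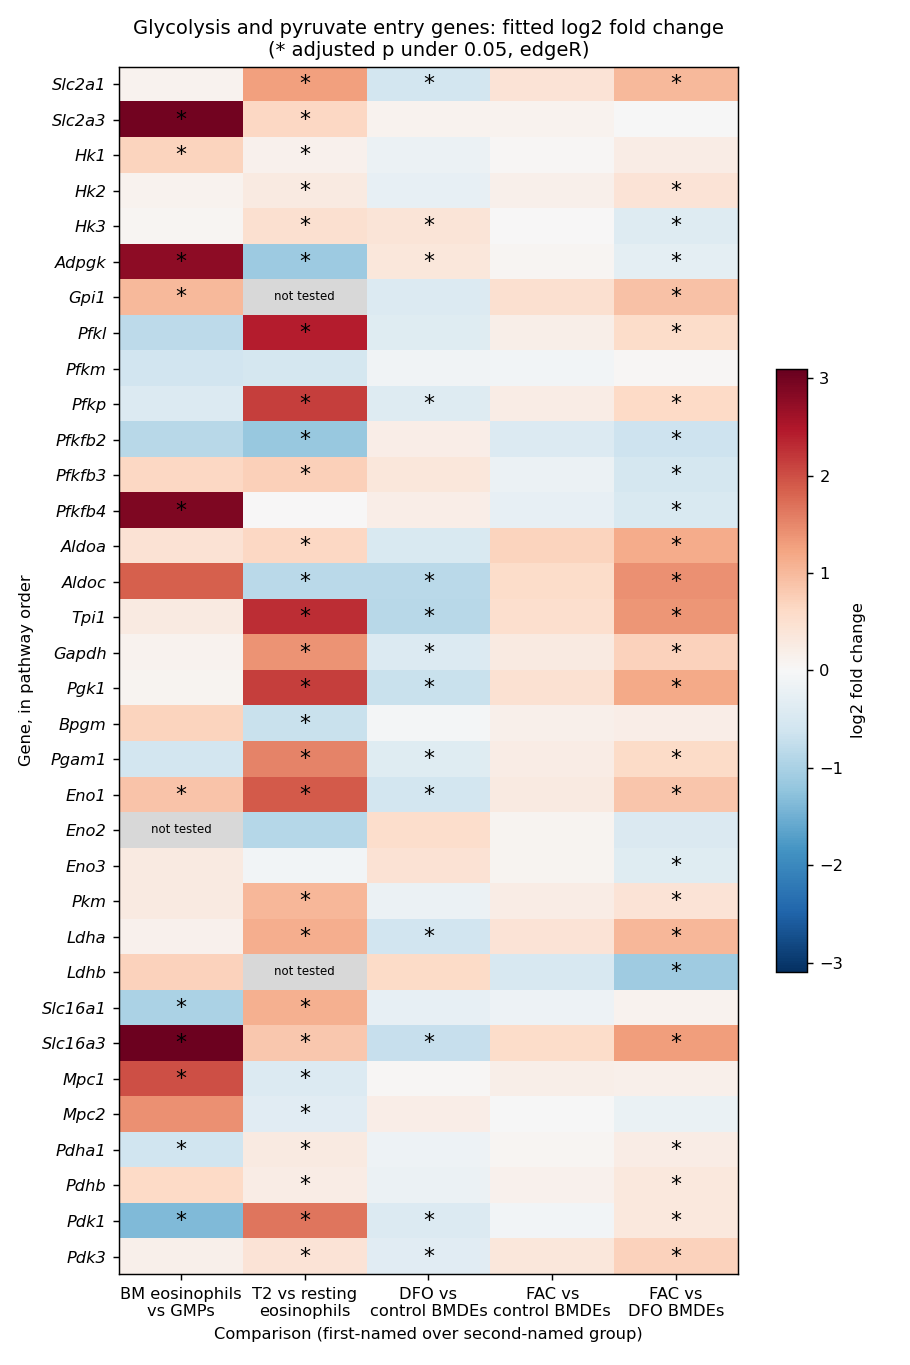
Fitted log2 fold changes of the 34 genes (rows, in pathway order) in 5 comparisons (columns), as colour from lower (blue) to higher (red) in the first-named group; a star marks an adjusted p under 0.05 in edgeR. The T2 column is mostly red from Slc2a1 to Ldha, the FAC against control column holds no star, and grey cells were not tested or not matched by symbol.

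In BM eosinophils 4 members stood furthest above GMPs. The carriers Slc2a3 and Slc16a3, the ADP-dependent glucokinase Adpgk and the regulator Pfkfb4 were 6.83 to 8.27 times as high, while most enzymes of lower glycolysis did not pass the test. Of 33 members tested, 8 rose, 3 fell and 22 did not pass the test. Of all genes tested, 19.8% were called (13% higher and 6.78% lower). A member is called at an adjusted p under 0.05 (edgeR's quasi-likelihood test with Benjamini-Hochberg adjustment over all tested genes). The median log2 fold change was 0.28 over the members and 0.01 over all genes tested. At least 2-fold changes were called for 5 members upward and 1 downward, against 10.8% and 3.85% of all genes tested. No overlap between libraries was seen for 11 members that were higher and 7 that were lower, against 23.7% and 24.7% of all genes tested.

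Slc2a3, which encodes the high-affinity glucose carrier GLUT3, had 167, 212 and 151 CPM in BM eosinophils, against 20.6, 24.4 and 21.5 CPM in GMPs. No library of one group reached the other, and the log2 fold change was 2.99 ± 0.20 (SE, adjusted p = 0.000302, edgeR). Slc2a1, which encodes the carrier GLUT1, overlapped between the groups at 36.3 to 44.0 CPM in BM eosinophils and 33.5 to 43.4 CPM in GMPs. The lactate exporter Slc16a3 (MCT4) stood at 117, 152 and 116 CPM in BM eosinophils, against 13.6, 14.6 and 18.4 CPM in GMPs (log2 3.05 ± 0.21, adjusted p = 0.000341, edgeR). Its relative Slc16a1 (MCT1) went the other way, with 116 to 127 CPM in BM eosinophils and 229 to 250 CPM in GMPs (log2 -0.97 ± 0.14, adjusted p = 0.0049, edgeR). The lactate carrier pair thus had 1 member called in each direction.

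Adpgk, an enzyme of the endoplasmic reticulum that phosphorylates glucose with ADP, had 495, 601 and 479 CPM in BM eosinophils, against 85.7, 74.5 and 70.6 CPM in GMPs (log2 2.77 ± 0.18, adjusted p = 0.000295, edgeR). Pfkfb4 had 85.0, 119 and 156 CPM in BM eosinophils, against 16.9, 13.7 and 17.5 CPM in GMPs (log2 2.91 ± 0.27, adjusted p = 0.00099, edgeR). Both were clear of the GMP range in each library. Smaller increases were called for Gpi1, the isomerase after hexokinase (1.00 ± 0.22, adjusted p = 0.0229), for Eno1 (0.88 ± 0.20, adjusted p = 0.0239) and for Hk1 (0.68 ± 0.19, adjusted p = 0.0469), all as log2 fold changes in edgeR.

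At the entry to the mitochondrion the members split. Mpc1, a subunit of the mitochondrial pyruvate carrier, had 168, 268 and 754 CPM in BM eosinophils, against 88.7, 87.1 and 120 CPM in GMPs (log2 2.01 ± 0.54, adjusted p = 0.0436, edgeR). Library 3 was far above the other BM eosinophil libraries, and without it the log2 fold change was 1.14 (adjusted p = 0.00617). With length and GC offsets it was 1.06 (adjusted p = 0.0139), both in edgeR. The partner subunit Mpc2 was also highest in library 3, at 61.3, 80.3 and 183 CPM in BM eosinophils and 34.5 to 46.3 CPM in GMPs, and did not pass the test. The kinase Pdk1 fell to 65.9, 50.2 and 45.9 CPM in BM eosinophils, against 133, 155 and 128 CPM in GMPs (log2 -1.36 ± 0.19, adjusted p = 0.00492, edgeR). Pdha1, the catalytic alpha subunit of pyruvate dehydrogenase, fell to 149 to 177 CPM in BM eosinophils, against 235 to 253 CPM in GMPs (log2 -0.61 ± 0.15, adjusted p = 0.03, edgeR).

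The calls depended on single libraries. Without BM eosinophil library 2, or without GMP library 1, 2 or 3, 6 members were called: Slc2a3, Adpgk, Pfkfb4, Slc16a1, Slc16a3 and Pdk1. Without BM eosinophil library 3, the one with the most neutrophil marker RNA, 18 were called, among them all 11, and calls over all genes reached 36.6%. Without library 2 that share was 11.7%, and without 1 GMP library it was 5.91% to 7.71%. The part of neutrophil RNA in these differences was not tested.

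**Figure D2:**
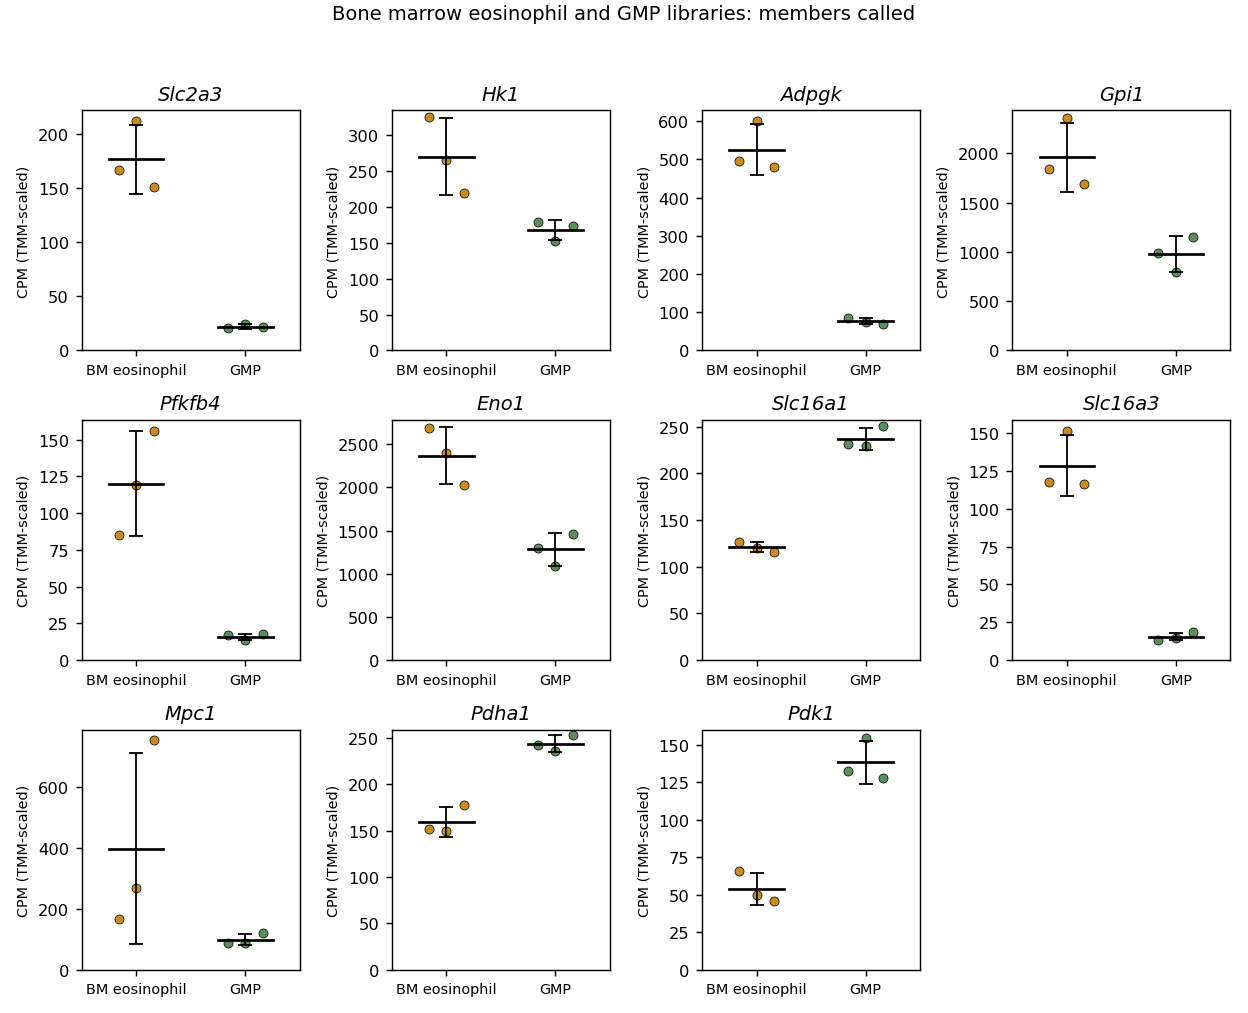
Levels of the 11 members called between BM eosinophils (left) and GMPs (right), in TMM-scaled CPM on linear axes from 0; each point is a library, lines are means and bars are SD. The 3 BM eosinophil libraries lie above all GMP libraries for 8 genes and below them for Slc16a1, Pdha1 and Pdk1; for Mpc1 one library at 754 CPM sets the mean.

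With T2 cytokines genes of most steps from glucose uptake to lactate export were higher. Tpi1, Pfkl, Pgk1, Pfkp and Eno1 were 3.74 to 5.41 times as high in T2 as in resting eosinophils. Of 32 members tested, 22 rose, 6 fell and 4 did not pass the test, where 76.1% of all genes tested were called (38.2% higher and 37.9% lower). At least 2-fold changes were called for 12 members upward and 2 downward, against 11.7% and 15.8% of all genes tested. The libraries did not overlap for 22 members higher and 6 lower, against 38.8% and 39% of all genes tested. The members' median log2 fold change was 0.57, and that of all genes tested was -0.01.

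Glucose uptake and phosphofructokinase genes rose. Slc2a1 had 298, 317 and 298 CPM in T2 eosinophils, against 129, 129 and 120 CPM in resting eosinophils (log2 1.27 ± 0.05, adjusted p = 9.23e-13, edgeR). Pfkl, the liver-type phosphofructokinase, had 154, 174 and 167 CPM in T2 eosinophils, against 28.2, 35.4 and 27.5 CPM in resting eosinophils (log2 2.44 ± 0.08, adjusted p = 1.86e-13, edgeR). Its platelet-type counterpart Pfkp had 292, 340 and 288 CPM in T2 eosinophils, against 69.1, 70.6 and 68.0 CPM in resting eosinophils (log2 2.15 ± 0.06, adjusted p = 3.51e-14, edgeR). All T2 libraries of these genes lay above all resting ones. The muscle-type Pfkm was at 1.09 to 1.53 CPM in T2 and 1.16 to 3.06 CPM in resting eosinophils and was not called.

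Among the regulators of phosphofructokinase, Pfkfb2 fell to 8.34, 8.999 and 8.89 CPM in T2 eosinophils, against 19.9, 19.1 and 20.6 CPM in resting eosinophils (log2 -1.18 ± 0.09, adjusted p = 5.36e-09, edgeR). Pfkfb3, which has by far the stronger kinase side of this family, rose by a log2 fold change of 0.74 ± 0.06 (adjusted p = 7.41e-09, edgeR), and Pfkfb4 was not called. Hexokinases moved little, with log2 fold changes of 0.13 for Hk1, 0.27 for Hk2 and 0.50 for Hk3, each called. Adpgk fell to 51.8, 54.8 and 56.7 CPM in T2 eosinophils, against 120, 111 and 124 CPM in resting eosinophils (log2 -1.12 ± 0.06, adjusted p = 5.15e-11, edgeR). The isomerase gene listed as Gpi had 742, 798 and 853 CPM in T2 eosinophils, against 1210.0, 1218 and 1137 CPM in resting eosinophils (log2 -0.57 ± 0.05, adjusted p = 2.83e-08, edgeR), a fall where the enzymes on either side of it rose.

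Most enzymes of lower glycolysis rose. Tpi1, the triosephosphate isomerase, had 669, 772 and 732 CPM in T2 eosinophils, against 141, 153 and 149 CPM in resting eosinophils (log2 2.29 ± 0.05, adjusted p = 2.86e-15, edgeR). Pgk1, the first ATP-making enzyme of the pathway, had 609, 715 and 705 CPM in T2 eosinophils, against 141, 160 and 155 CPM in resting eosinophils (log2 2.15 ± 0.06, adjusted p = 3.7e-14, edgeR). Eno1 had 1966, 2075 and 2084 CPM in T2 eosinophils, against 537, 574 and 527 CPM in resting eosinophils (log2 1.90 ± 0.04, adjusted p = 2.12e-15, edgeR). For these enzymes the T2 libraries were several times above the resting ones, with little spread within either group.

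Pgam1, the phosphoglycerate mutase, had 674, 738 and 710 CPM in T2 eosinophils, against 242, 245 and 240 CPM in resting eosinophils (log2 1.55 ± 0.04, adjusted p = 2.39e-14, edgeR). Gapdh had 2073, 2362 and 2420 CPM in T2 eosinophils, against 866, 906 and 831 CPM in resting eosinophils (log2 1.397 ± 0.05, adjusted p = 1.17e-12, edgeR). Pkm, the pyruvate kinase, had 1591, 1678 and 1679 CPM in T2 eosinophils, against 797, 849 and 768 CPM in resting eosinophils (log2 1.03 ± 0.04, adjusted p = 3.94e-12, edgeR). Gapdh is a common reference transcript, and here it was not level between the groups. The minor isozyme Aldoc and the mutase Bpgm, which makes the haemoglobin ligand 2,3-bisphosphoglycerate, fell, with log2 fold changes of -0.84 ± 0.22 for Aldoc and -0.68 ± 0.13 for Bpgm. Without resting library 2, the highest for Aldoc, its log2 fold change was -0.49.

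At the fate of pyruvate, Ldha had 1090.0, 1207 and 1218 CPM in T2 eosinophils, against 555, 548 and 517 CPM in resting eosinophils (log2 1.12 ± 0.05, adjusted p = 4.62e-12, edgeR). Pdk1 had 55.3, 64.0 and 57.0 CPM in T2 eosinophils, against 16.8, 20.1 and 18.7 CPM in resting eosinophils (log2 1.66 ± 0.08, adjusted p = 1.31e-11, edgeR). The exporter Slc16a3 rose by a log2 fold change of 0.83 ± 0.04. Slc16a1 rose at a very low level, with 2.09, 2.25 and 2.24 CPM in T2 and 1.35, 1.02 and 0.694 CPM in resting eosinophils (log2 1.09 ± 0.30, adjusted p = 0.00371, edgeR). Both subunits of the pyruvate carrier fell, Mpc1 by 0.43 and Mpc2 by 0.36 on the log2 scale, while the pyruvate dehydrogenase subunits Pdha1 and Pdhb rose by 0.28 and 0.24. Ldhb was at 0.112 to 0.491 CPM in T2 and 0.405 to 2.35 CPM in resting eosinophils, too low to be tested.

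Eosinophil markers summed to 6338 to 6462 CPM in T2 and 7623 to 7984 CPM in resting eosinophils. Neutrophil markers summed to 1403 to 1440 CPM in T2 and 2522 to 2749 CPM in resting eosinophils, and monocyte or macrophage markers to 1185 to 1297 CPM in T2 and 933 to 1012 CPM in resting eosinophils. Dendritic cell markers summed to 656 to 662 CPM in T2 and 452 to 468 CPM in resting eosinophils. GMP markers summed to 1550 to 1584 CPM in T2 and 1458 to 1519 CPM in resting eosinophils. Their part in the changes above was not tested. Of the 28 called members, 26 to 28 kept their call when any 1 library was left out. Over all genes 71.6% to 73.6% were called in those fits, against 76.1% in the main fit. Rows for near-copies that carry a member's symbol in this table held at most 17 counts per library for Gapdh and 61 for Eno1.

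**Figure D3:**
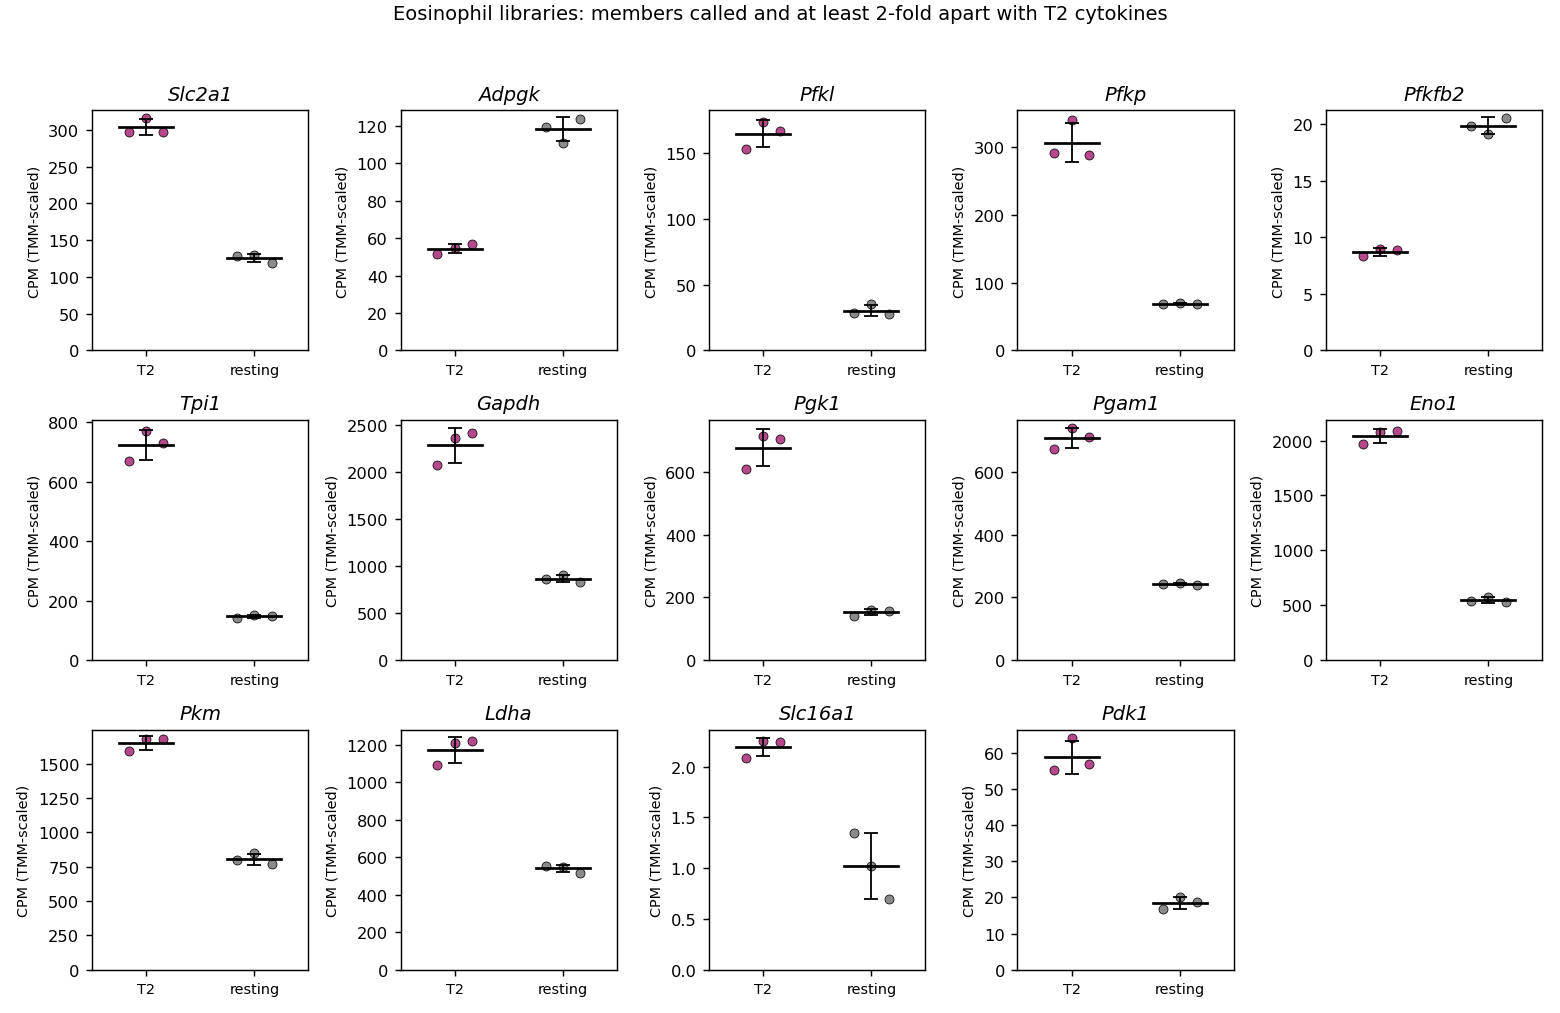
Levels of the 14 members called with at least a 2-fold change between T2 (left) and resting eosinophils (right), in TMM-scaled CPM from 0; points are libraries, lines are means and bars are SD. T2 libraries lie above resting ones for 12 genes and below them for Adpgk and Pfkfb2, with no overlap in any panel.

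In BMDEs many genes of glycolysis were higher with iron loading than with chelation. FAC BMDEs held more Aldoc, Tpi1, Slc16a3, Pgk1, Aldoa, Ldha and Slc2a1 RNA than DFO BMDEs, by 2.01 to 2.65 times, and less Ldhb. Of 34 members tested between FAC and DFO, 19 rose, 7 fell and 8 did not pass the test. Of all genes tested, 48.2% were called (23.5% higher and 24.8% lower). At least 2-fold changes were called for 7 members upward and 1 downward, against 2.48% and 7.53% of all genes tested. The libraries did not overlap for 19 members higher and 7 lower, against 26.8% and 28.9% of all genes tested. The median log2 fold change was 0.33 over the members and -0.01 over all genes tested.

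Slc2a1 had 48.7, 51.8 and 56.5 CPM in DFO BMDEs, 103, 124, 88.7 and 105 CPM in FAC BMDEs and 79.4 and 76.2 CPM in control BMDEs. FAC over DFO gave a log2 fold change of 1.01 ± 0.11 (adjusted p = 9.73e-05, edgeR). The second glucose carrier, Slc2a3, differed little, at 361 to 373 CPM with DFO, 350 to 392 CPM with FAC and 329 to 355 CPM in controls. Its FAC range overlapped those of both other arms. The DFO libraries lay above both controls, but Slc2a3 was not called against control in either arm.

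Aldoa had 777, 828 and 868 CPM in DFO BMDEs, 1735, 2527, 1423 and 1664 CPM in FAC BMDEs and 1149 and 1128 CPM in control BMDEs (FAC over DFO log2 1.16 ± 0.17, adjusted p = 0.000599, edgeR). Aldoc, a far rarer aldolase, had 9.62, 11.7 and 12.3 CPM in DFO BMDEs, 29.7, 35.1, 24.5 and 29.7 CPM in FAC BMDEs and 20.5 and 19.6 CPM in control BMDEs (1.41 ± 0.13, adjusted p = 4.32e-05, edgeR). Both had the control libraries between the iron arms. FAC library 6 was the highest of its group for both.

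Tpi1 had 193, 227 and 247 CPM in DFO BMDEs, 534, 828, 436 and 512 CPM in FAC BMDEs and 403 and 401 CPM in control BMDEs (FAC over DFO log2 1.37 ± 0.20, adjusted p = 0.000549, edgeR). Pgk1 had 460, 496 and 535 CPM in DFO BMDEs, 1056, 1417, 925 and 1064 CPM in FAC BMDEs and 817 and 796 CPM in control BMDEs (1.17 ± 0.14, adjusted p = 0.000136, edgeR). Again no library of one arm reached another. Gapdh, Eno1, Gpi1, Pgam1, Pfkp, Pfkl and Pkm rose by smaller log2 fold changes of 0.71, 0.86, 0.91, 0.59, 0.63, 0.56 and 0.43, in that order.

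Ldha and Ldhb, whose products form the lactate dehydrogenase tetramer, went in opposite directions. Ldha had 625, 688 and 746 CPM in DFO BMDEs, 1394, 1745, 1193 and 1309.7 CPM in FAC BMDEs and 1057 and 1029 CPM in control BMDEs (FAC over DFO log2 1.04 ± 0.13, adjusted p = 0.000188, edgeR). Ldhb had 11.7, 12.1 and 11.96 CPM in DFO BMDEs, 6.04, 6.89, 5.15 and 4.34 CPM in FAC BMDEs and 8.73 and 7.11 CPM in control BMDEs (-1.09 ± 0.15, adjusted p = 0.000341, edgeR). The lactate exporter Slc16a3 had 105, 114 and 120 CPM in DFO BMDEs, 281, 345, 229 and 255 CPM in FAC BMDEs and 192 and 179 CPM in control BMDEs (1.295 ± 0.13, adjusted p = 6.17e-05, edgeR). Its relative Slc16a1 was not called.

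All 3 Pfkfb members fell with FAC against DFO, with log2 fold changes of -0.64 for Pfkfb2, -0.54 for Pfkfb3 and -0.46 for Pfkfb4, as did Hk3 (-0.39), Adpgk (-0.30) and Eno3 (-0.38). At the mitochondrial entry Pdk3 rose by 0.71 ± 0.08, Pdk1 by 0.33 ± 0.10, Pdhb by 0.33 ± 0.10 and Pdha1 by 0.23 ± 0.06 on the log2 scale, while Mpc1 and Mpc2 were not called. The calls of Hk2 (0.41, adjusted p = 0.037) and Eno3 (adjusted p = 0.0363) in edgeR were lost on leaving out any 1 BMDE library other than FAC library 6. Over all fits without 1 library 21 to 29 members were called, where 33.9% to 62.5% of all genes were called, against 48.2% in the main fit.

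**Figure D4:**
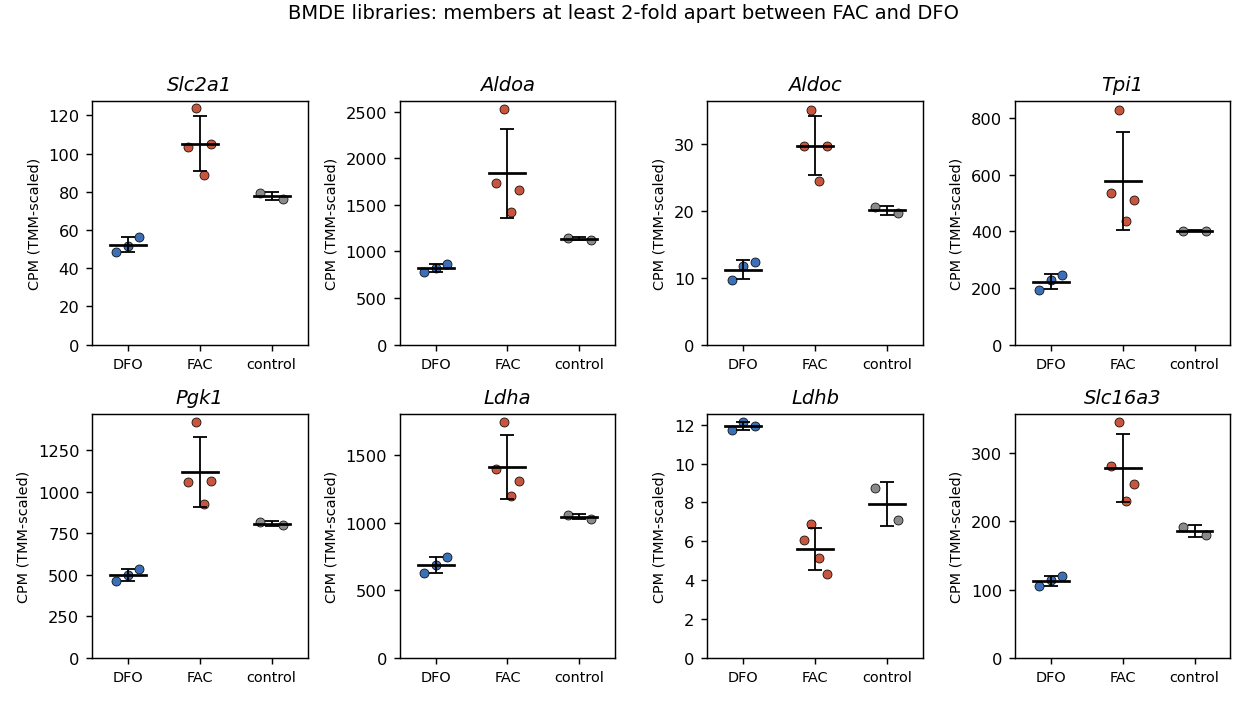
Levels of the 8 members called with at least a 2-fold change between FAC and DFO BMDEs, for DFO (left), FAC (middle) and control (right), in TMM-scaled CPM from 0; points are libraries, lines are means and bars are SD. For 7 genes the DFO libraries are lowest, the FAC libraries highest and the 2 controls between, and for Ldhb the FAC libraries are lowest.

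Against control BMDEs, DFO gave smaller differences. Of 34 members 2 rose (Hk3 and Adpgk), 12 fell and 20 did not pass the test, where 11.6% of all genes tested were called (6.46% higher and 5.12% lower), and no called change reached 2-fold, where 0.857% of all genes were called at least 2-fold higher and 0.69% lower. The members' median log2 fold change was -0.22, and that of all genes tested was 0.00. By size of p the calls were led by Aldoc (log2 -0.84 ± 0.16, adjusted p = 0.00975), Pfkp (-0.39 ± 0.08, adjusted p = 0.0142), Slc16a3 (-0.72 ± 0.15, adjusted p = 0.0167), Eno1 (-0.58 ± 0.13, adjusted p = 0.0194) and Hk3 (0.39 ± 0.09, adjusted p = 0.0204), all in edgeR. Pfkp had 83.3, 95.9 and 93.2 CPM in DFO BMDEs, against 118 and 121 CPM in control BMDEs. Eno1 had 830, 882 and 918 CPM in DFO BMDEs, against 1323 and 1294 CPM in control BMDEs. Hk3, the hexokinase of myeloid cells, had 261, 278 and 260 CPM in DFO BMDEs, against 210 and 196 CPM in control BMDEs. The other falls were Tpi1, Pgk1, Ldha, Slc2a1, Gapdh, Pdk1, Pgam1 and Pdk3, with log2 fold changes of -0.85 to -0.36.

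In 22 members every DFO library lay below both controls and in 10 every one lay above, against 32.9% and 32.8% of all genes tested. The number of calls rested on few libraries. It was 1, 2 and 4 without DFO library 11, 12 and 9, and 8 without FAC library 5. Without FAC library 6, which shares in the estimate of spread, it was 28. Fitted on the DFO and control libraries alone, it was 31 (10 higher, 21 lower). Calls over all genes moved too, against 11.6% in the main fit. They were 4.72%, 4.97% and 5.57% without DFO library 11, 12 and 9, and 8.65% without FAC library 5. Without FAC library 6 they reached 39%, and 48.0% in the fit on both groups alone. Leaving out control library 1 or 2 leaves a single control, so calls from those fits are not given. The members' median log2 fold change was then -0.23 or -0.22, which does not show whether the calls held.

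FAC against control gave no called member out of 34 in edgeR, where 6.04% of all genes tested were called (1.76% higher and 4.28% lower). At an unadjusted p under 0.05 there were 16 members, where 22.5% of all genes passed. DESeq2 called 9, all higher, and 10.4% of all genes. The members' median log2 fold change was 0.16, and that of all genes tested was -0.02. In 14 members all FAC libraries lay above both controls and in 3 all lay below, against 17.1% and 19% of all genes tested. The smallest adjusted p-values in edgeR belonged to Slc16a3 (log2 0.58, adjusted p = 0.0504) and Pdk3 (log2 0.36, adjusted p = 0.0504). Without FAC library 6 there were 15 calls (13 higher, 2 lower) among the members and 21.7% of all genes were called, and without FAC library 7 there were 9 and 8.47%.

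Set side by side, 14 members had every DFO library below both controls and every FAC library above them: Slc2a1, Gpi1, Pfkp, Aldoa, Aldoc, Tpi1, Gapdh, Pgk1, Pgam1, Eno1, Pkm, Ldha, Slc16a3 and Pdk3. The opposite order held for Pfkfb2, Pfkfb4 and Ldhb. Over all genes tested the shares were 11.5% and 13.1%. The 3 BMDE comparisons share libraries, so these orders are not independent of the counts above. Eosinophil markers moved with them, with summed levels of 18710 to 22100 CPM in DFO, 57990 to 70170 CPM in FAC and 42640 to 43590 CPM in control BMDEs. Neutrophil markers went the other way, at 18840 to 21090 CPM in DFO, 7199 to 10140 CPM in FAC and 10390 to 12370 CPM in control BMDEs. So did GMP markers, at 2524 to 2612 CPM in DFO, 1612 to 1855 CPM in FAC and 1969 to 1998 CPM in control BMDEs. Dendritic cell markers were highest with DFO, at 3175 to 3340 CPM, and had 1192 to 2359 CPM in FAC BMDEs, a range that spans the 1930 to 2017 CPM of control BMDEs. Monocyte or macrophage markers had the same order as the 14 members, at 1886 to 1986 CPM in DFO, 2502 to 3668 CPM in FAC and 2116 to 2241 CPM in control BMDEs. The part of cell make-up was not tested.

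The windows of 250 bases before the first-listed RefSeq start (GRCm38.p6) are shown for all members of these ordered sets whose window overlaps no annotated exon. They are Gapdh, Pgk1, Pgam1, Eno1 and Ldha, lowest with DFO, and Pfkfb2 and Ldhb, lowest with FAC. Capitals mark ACGTG or GCGTG on either strand, the core letters of the hypoxia response element; CACGTG reads the same on both strands and counts on each. Pgk1 lies at chrX:106187100-106203699 and Ldhb at chr6:142490249-142507957.
Gapdh (chr6:125165774-125166023, minus strand): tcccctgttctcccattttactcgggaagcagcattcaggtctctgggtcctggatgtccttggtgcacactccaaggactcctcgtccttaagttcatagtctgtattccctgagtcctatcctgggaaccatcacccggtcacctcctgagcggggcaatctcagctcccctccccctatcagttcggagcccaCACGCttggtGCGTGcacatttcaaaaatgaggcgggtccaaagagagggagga
Pgk1 (chrX:106186850-106187099, plus strand): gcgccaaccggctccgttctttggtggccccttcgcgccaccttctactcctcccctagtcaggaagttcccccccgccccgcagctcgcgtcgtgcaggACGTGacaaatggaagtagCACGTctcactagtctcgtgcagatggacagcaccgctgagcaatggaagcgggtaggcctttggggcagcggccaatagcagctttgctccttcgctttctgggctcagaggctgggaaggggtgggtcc
Pgam1 (chr19:41911621-41911870, plus strand): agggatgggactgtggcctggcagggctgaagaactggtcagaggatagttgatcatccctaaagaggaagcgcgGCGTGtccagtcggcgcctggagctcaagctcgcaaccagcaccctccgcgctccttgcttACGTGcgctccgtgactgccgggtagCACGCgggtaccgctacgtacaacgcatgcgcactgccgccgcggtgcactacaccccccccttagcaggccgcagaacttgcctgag
Eno1 (chr4:150236458-150236707, plus strand): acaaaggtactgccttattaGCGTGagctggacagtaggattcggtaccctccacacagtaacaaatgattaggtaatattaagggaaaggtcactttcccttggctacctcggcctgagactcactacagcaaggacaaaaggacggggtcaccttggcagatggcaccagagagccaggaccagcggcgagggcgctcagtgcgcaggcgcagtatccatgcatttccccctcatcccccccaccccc
Ldha (chr7:46845554-46845803, plus strand): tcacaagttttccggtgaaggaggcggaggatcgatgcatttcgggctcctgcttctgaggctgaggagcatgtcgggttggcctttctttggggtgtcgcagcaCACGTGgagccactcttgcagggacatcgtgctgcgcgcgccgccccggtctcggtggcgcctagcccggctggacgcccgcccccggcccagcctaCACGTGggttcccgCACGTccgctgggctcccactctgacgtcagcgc
Pfkfb2 (chr1:130715822-130716071, minus strand): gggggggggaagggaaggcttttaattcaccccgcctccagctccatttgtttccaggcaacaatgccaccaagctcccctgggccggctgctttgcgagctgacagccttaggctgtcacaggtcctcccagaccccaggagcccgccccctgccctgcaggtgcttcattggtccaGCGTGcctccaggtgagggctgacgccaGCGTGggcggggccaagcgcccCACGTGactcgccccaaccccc
Ldhb (chr6:142507958-142508207, minus strand): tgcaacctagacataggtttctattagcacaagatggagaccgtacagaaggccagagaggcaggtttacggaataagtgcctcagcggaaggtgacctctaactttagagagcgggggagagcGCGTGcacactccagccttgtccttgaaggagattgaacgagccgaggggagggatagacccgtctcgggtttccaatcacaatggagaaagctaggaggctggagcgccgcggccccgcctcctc
The Ldha, Gapdh and Pfkfb2 windows lie inside longer annotated models of their own genes. The window of the second RefSeq start of Ldha holds no ACGTG. The Gapdh, Eno1 and Ldhb windows hold none either. ACGTG was present in 20 of 49 windows of the 33 members found in the promoter table (40.8%), in 21.2% of the windows of genes tested in BMDEs and in 16.6% of all 32851 windows. GCGTG was present in 57.1% of member windows, 43.3% of windows of tested genes and 28.2% of all windows. Mean GC content was 59.9%, 59.4% and 53.2% in the same order. Several windows of one gene overlap, a match is only a match of letters, and Ldhb and Pfkfb2, which were lowest with FAC, have matches as well.

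Isozymes were compared as shares of their family's level per kilobase, with only members counted in a family. Between BM eosinophils and GMPs the glucose carriers and lactate carriers differed the most. Slc2a3 made up 78.00% ± 4.53 of the GLUT pair in BM eosinophils, against 33.1% ± 4.67 in GMPs (SD, n = 3 each). Slc16a3 made up 51.9% ± 4.06 of the lactate carrier pair in BM eosinophils, against 6.25% ± 0.66 in GMPs, 99.6% in both T2 and resting eosinophils, and 70.8% ± 1.02 in DFO, 84.3% ± 3.09 in FAC and 76.8% ± 1.89 in control BMDEs. Within the GLUT pair Slc2a1 took 48.8% ± 1.85 in T2 and 37.9% ± 1.44 in resting eosinophils, and 14.7% ± 0.98 in DFO, 25.8% ± 3.20 in FAC and 21.7% ± 0.40 in control BMDEs.

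The leading hexokinase was not the same in each table. Hk3 led with 75.2% ± 5.17 in BM eosinophils and 81.7% ± 0.32 in GMPs, whereas Hk2, an isozyme raised in many growing cells, led with 54.6% ± 0.25 in T2 and 53.5% ± 0.98 in resting eosinophils. In DFO BMDEs Hk3 held 46.7% ± 0.88, against 36.7% ± 1.23 in control BMDEs, where Hk1 at 40.8% ± 0.59 was the first. In FAC BMDEs Hk1 held 40.4% ± 2.23 and Hk3 35.6% ± 4.97. These tables were normalized apart, so levels were ranked only within a group, and only shares are compared across tables. The T2 table holds read counts and the others hold expected counts. A difference in shares between tables cannot be told apart from this difference in counting.

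Pfkp led the phosphofructokinases in T2 (62.3% ± 1.58) and resting eosinophils (65.6% ± 3.38), and Pfkl in GMPs (56.8% ± 1.28) and control BMDEs (50.1% ± 1.51). In BM eosinophils Pfkl at 49.9% ± 9.58 and Pfkp at 44.7% ± 12.5 did not differ beyond their spread. Pfkfb4 held 74.0% ± 11.1 of the Pfkfb family in BM eosinophils, against 35.5% ± 7.60 in GMPs, while Pfkfb3 held 71.6% ± 1.42 in T2 and 57.0% ± 0.66 in resting eosinophils. Pdk1 held 16.8% ± 1.64 of the kinase pair in BM eosinophils, against 36.8% ± 2.195 in GMPs, and 34.6% ± 1.00 in T2, against 18.3% ± 0.85 in resting eosinophils. The pair is Pdk1 and Pdk3. Pdk2, described below, is not a member, so its fall in T2 eosinophils does not enter these shares. Among the members alone, Aldoa, Eno1 and Ldha each held at least 88.55% of their family in every library. Of Ldha and Ldhb together, Ldhb held 2.38% ± 0.18 in DFO, 0.55% ± 0.07 in FAC and 1.04% ± 0.13 in control BMDEs. Ldhc, described below, is not a member and was left out of these shares. Its CPM was above that of Ldhb in FAC and control BMDEs and in T2 and resting eosinophils. In BM eosinophils and GMPs it was below.

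No share passed a threshold of 0.05, and none could: the smallest exact two-sided permutation p is 0.1 for 3 against 3 libraries, 0.0571 for 4 against 3, 0.133 for 4 against 2 and 0.2 for 3 against 2. Over the 120 tests run the smallest adjusted value was 0.25. The Slc2a3, Slc16a3, Pfkfb4 and Pdk1 shares named above reached 0.1 in the exact permutation test, with no overlap between libraries, for BM eosinophils against GMPs. On the authors' FPKM values the leading isozyme differed in 3 of the places examined. These were the phosphofructokinases of BM eosinophils and FAC BMDEs and the GLUT pair of T2 eosinophils. In BM eosinophils and T2 eosinophils the leading pair was close on both measures. In FAC BMDEs Pfkl held 45.6% ± 2.65 and Pfkp 46.6% ± 2.59 on FPKM, against 50.1% ± 2.86 and 41.5% ± 2.82 per kilobase. The lead of Pfkl over Pfkp in control BMDEs fell within their spread on FPKM, at 45.7% ± 1.62 and 44.7% ± 1.26. On FPKM the lead of Hk2 over Hk1 was also within their spread, at 45.9% ± 0.57 and 44.9% ± 1.24 in T2 and 46.55% ± 1.14 and 45.5% ± 1.16 in resting eosinophils.

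**Figure D5:**
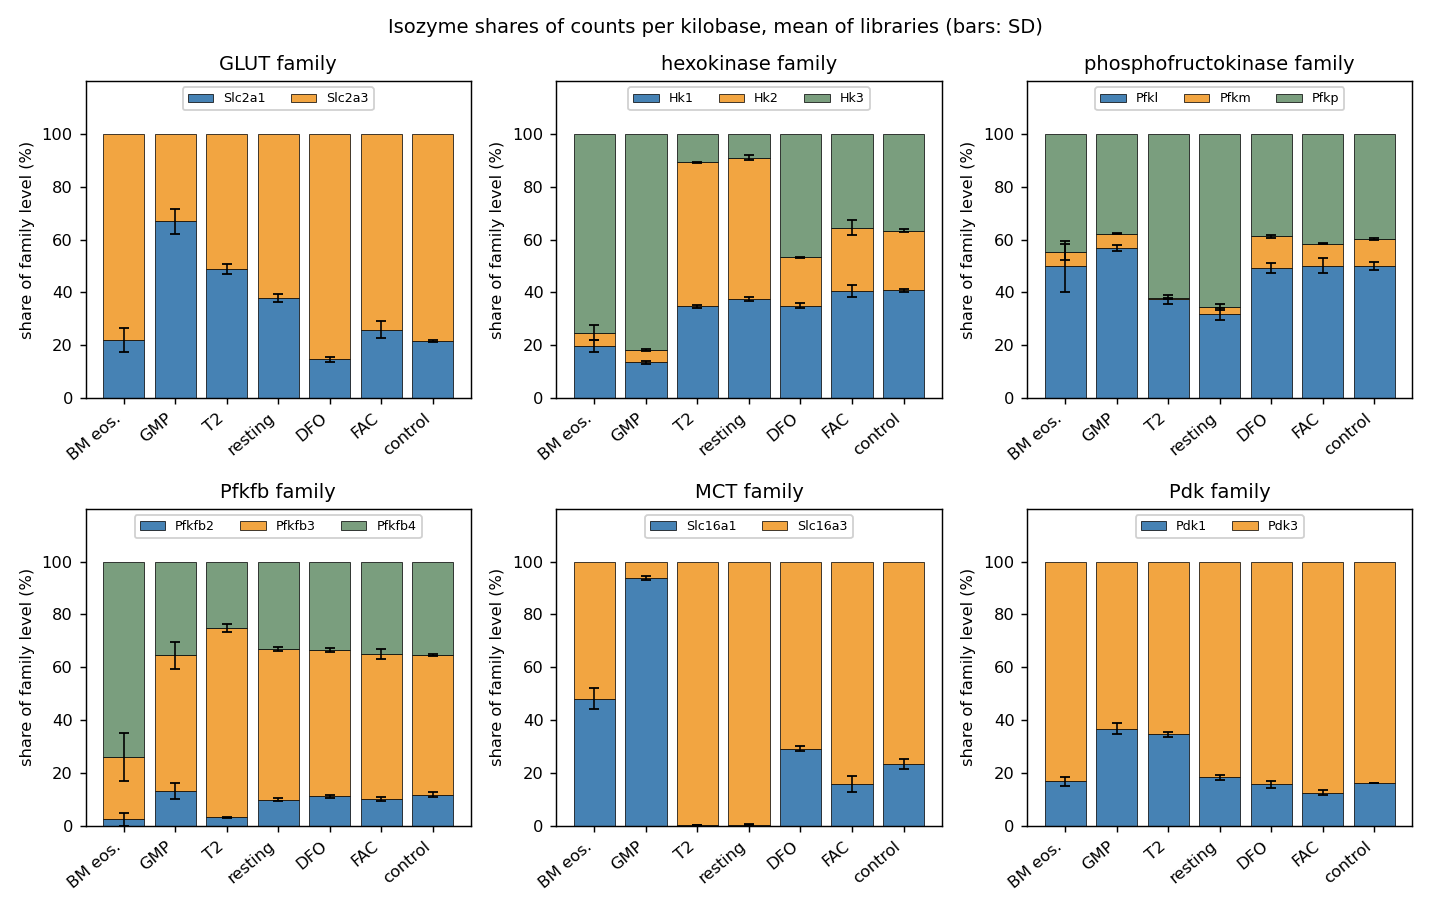
Share of each isozyme in its family's level per kilobase (stacked bars, mean of libraries, in percent; bars on the boundaries are the SD of the isozyme below) for 6 families in 7 groups. Hk3 takes most of the hexokinase bar in BM eosinophils and GMPs and little in T2 and resting eosinophils, and Slc16a3 takes nearly the whole MCT bar in T2 and resting eosinophils but 6.25% in GMPs.

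Other genes of glucose metabolism did not all follow. The counts for T2 below stand beside 76.1% of all genes tested called, 38.2% higher and 37.9% lower. In T2 eosinophils, 9 of 15 tested hypoxia-response genes outside glycolysis rose and 5 fell (median log2 0.30, against -0.01 over all genes tested), led by the prolyl hydroxylase Egln3 (3.12), the collagen hydroxylase subunit P4ha1 (2.91) and Vegfa (2.46). Of 15 tested regulators of glycolysis 11 rose and 3 fell (median 0.24), with Arrdc4 (1.97), Hif1a (1.54) and Myc (1.47) the furthest moved. Outside the members, the kinase Pdk2 fell by 4.27 on the log2 scale, to 1.10 CPM in T2 eosinophils, against 21.4 CPM in resting eosinophils. Of 6 tested sugar and lactate carrier genes outside the members 2 rose and 4 fell, the furthest being Emb, a partner of lactate carriers (-3.55), Slc2a8 (-2.19) and Slc2a9 (-2.15). Of 8 genes of the pentose phosphate pathway, which draws off glucose-6-phosphate to make NADPH, 3 rose and 4 fell (median -0.19). Of 14 glycogen genes 5 rose and 6 fell (median -0.24), and of 4 tested gluconeogenesis genes 1 rose and 2 fell (median -0.50). The pentose phosphate and glycogen counts are near the shares over all genes.

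In FAC against DFO BMDEs, 48.2% of all genes tested were called, 23.5% higher and 24.8% lower. Of 18 hypoxia-response genes 10 rose and 3 fell (median 0.31, against -0.01 over all genes tested). The largest changes were those of Adm (-1.59), Bnip3 (1.53) and Higd1a (1.05). The pentose phosphate list had 5 of 8 higher and 1 lower (median 0.44), with Taldo1 (0.65), Tkt (0.62) and G6pdx (0.61), its first enzyme. Regulators had 4 higher and 6 lower of 16 (median -0.05), glycogen genes 5 higher and 5 lower of 14 (median 0.12). In DFO against control, 2 hypoxia-response genes fell and none rose (Ero1a, -0.46, and P4ha1, -0.45), and in FAC against control 1 rose (Ero1a, 0.38), of 18 tested in each. Over all genes 11.6% were called with DFO and 6.04% with FAC, so these counts are near the background. Ldhc, the testis form of lactate dehydrogenase, had 11.98 CPM in DFO, 56.6 CPM in FAC and 29.1 CPM in control BMDEs (FAC over DFO log2 2.24), and 2.62 CPM in T2, against 32.0 CPM in resting eosinophils (log2 -3.60). It resembles Ldha, and how reads matching both were divided is not given in the sources used here.

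In BM eosinophils against GMPs, 4 of 14 glycogen genes rose and 2 fell (median 0.38, against 0.01 over all genes tested), led by Pygl, the liver-type glycogen phosphorylase (2.49). Of 8 pentose phosphate genes 3 rose and none fell (median 0.74), with Taldo1 at a log2 fold change of 1.79. Txnip, an inhibitor of glucose uptake, rose by 2.82, and Mtor fell by 1.18. Emb, named above, fell by 2.37. Ldhc had 53.8 CPM in BM eosinophils, against 0.241 CPM in GMPs. Hypoxia-response genes had 2 higher and 1 lower of 16 tested (median 0.80), near the 19.8% called over all genes.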

How the data were processed

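Libraries were built with a NEBNext Ultra kit from RNA enriched on oligo(dT) beads, per the labels' protocols; strand is not given in the sources used here. The submitters' processing notes name RSEM, StringTie 1.3.1, HISAT2, Bowtie2 2.2.8 and fastp 0.18.0, and do not tie a tool to a column. In the GMP and BMDE tables the values used are the expected counts the authors deposited (estimated reads per gene, not normalized), rounded here. In the T2 table they are the read counts the authors deposited. FPKM values deposited by the authors served only as an alternative for isozyme shares, added after seeing the data. Another 15 columns of TPM were not used.

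Groups came from the sample titles. The members and all gene lists were chosen with earlier results of these data known. Each table was fitted alone in R 4.3.3 with edgeR 4.0.16 and limma 3.58.1, using filterByExpr, TMM factors and the two-sided quasi-likelihood F test, the 3 BMDE arms in 1 fit, and Benjamini-Hochberg adjustment over all tested genes (12214, 11345 and 12607). Members called with an absolute log2 fold change of at least 1 are given per library (where fewer than 5 qualified, the 5 called with the smallest p), and at most 3 called genes per list are named. Identifiers matched a symbol for 15899, 16596 and 22219 genes of the GMP, BMDE and T2 tables. Lengths came from GENCODE M21 (GRCm38) and promoter windows from RefSeq (GRCm38.p6). DESeq2 1.42.0 was an alternative. Exact permutation tests used SciPy 1.17.1 (Python 3.11.15). Scripts were tested on simulated data. No molecular identifiers are given, so counts are of reads, and depth per library stands with the results.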

Additional observations from a re-analysis of the deposited data

Results flagged for a closer look

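In FAC BMDEs, 3 of 34 members had 1 of the 4 libraries far from the others by Dixon's ratio of the gap to the range, and in all 3 it was library 6, the one with the lowest TMM factor of its group. Hk2 was low there, at 170.4 CPM, against 256 to 272 CPM in the other FAC libraries. Pdhb was high, at 94.96 CPM, against 71.9 to 74.7 CPM. Pdk3 was high, at 126 CPM, against 105 to 108 CPM. Chance alone flags about 1 in 20 groups. Why library 6 differs was not tested.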

How the results depend on the processing

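No called member reversed its direction under any alternative run. Requiring a 2-fold change as well as the adjusted p left 6 members for BM eosinophils against GMPs, 14 for T2, 0 for DFO against control and 8 for FAC against DFO. For DFO against control (14 members), upper-quartile scaling gave 9, length and GC offsets 22 and a fit on the 2 groups alone 31, where 11.4%, 22.6% and 48.0% of all genes were called, against 11.6%. For FAC against control (0 members), size factors of DESeq2 in edgeR gave 2, DESeq2 itself 9 and length and GC offsets 12, where 5.97%, 10.4% and 11.2% of all genes were called, against 6.04%. Leaving out 1 library at a time gave 6 to 18 for BM eosinophils against GMPs, 26 to 29 for T2 and 21 to 29 for FAC against DFO. Calls over all genes were then 5.91% to 36.6%, 71.6% to 73.6% and 33.9% to 62.5%, in that order. The main fits had 19.8%, 76.1% and 48.2%. With both controls kept, 1 to 28 were called for DFO against control and up to 15 for FAC against control. Over all genes 4.72% to 39% and 2.66% to 21.7% were called in those fits. Where 1 library was left of a group, it was assumed to vary like the others. Upper-quartile scaling moved the median of all genes in the T2 comparison to -0.13, against -0.01 with TMM, and the log2 fold changes of Hk1 (0.01) and Pdhb (0.12) then did not pass the test. The cause of these shifts was not tested, nor was the part of the fewer degrees of freedom in fits with fewer libraries.

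The deviations of same-numbered libraries from their group means correlated at 0.01, 0.00 and 0.12 in the GMP table and at -0.01, -0.02 and 0.03 in the T2 table. Differently numbered libraries gave -0.18 to 0.14 and -0.05 to 0.05. With 3 libraries a group, these values cannot show whether same-numbered libraries share an animal or a day. With the replicate number as a block, 7 members were called for BM eosinophils against GMPs, in place of 11, and 28 for T2. Calls over all genes were then 11.6%, against 19.8% in the main fit, and 74.9% for T2, against 76.1%. BMDE numbers are shared by no 2 arms, so no paired analysis was possible there.

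Of 120 isozyme share differences, 27 moved by more than the spread between libraries on raw counts and 18 on the authors' FPKM. Leaving out 1 library cannot move a mean share by as much as that spread, so by this measure it is no check on the shares. With 2 control BMDEs, differences against control rest on the fewest libraries. Eno2 in the GMP table and Ldhb in the T2 table had too few counts to be tested.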
